A study of Mus musculus with 6 samples.

Results

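Short cassette exons are internal exons of at most 50 nt that are either spliced into the messenger RNA or skipped. Each was recognised from 3 GT-AG splice junctions of 1 gene: a junction into the exon, a junction out of it, and a junction that joins the flanking exons directly. With a minimum of 20 junction reads in every library, 946 exons of 10 to 50 nt in 821 genes qualified, of 11672 cassette exons of 10 to 1000 nt found in the same way. Another 31 short candidates fell below the minimum in at least 1 library. Inclusion is given as a percentage per library, the mean of the reads of both inclusion junctions over that mean plus the reads of the skipping junction.

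The libraries came from common myeloid progenitors, marrow cells that give rise to granulocytes, monocytes, red cells and platelets, sorted as Lineage-, c-Kit+, Sca-1-, CD34+, Fcgamma-. The sorted cells were donor-derived cells of transplanted mice. The donor marrow carried the rtTA transactivator together with a U2AF1 transgene, either U2AF1(S34F) or U2AF1(WT), called S34F and WT below. Both groups received doxycycline for 5 days, starting more than 6 weeks after transplantation, so both carried an induced transgene, and the labels name no deletion of the endogenous U2af1. Each genotype had 3 libraries and each library pooled marrow from 4 to 5 mice, so p-values measure the spread between pools. No source used here gives the age of the mice. The genotype entry of the sample characteristics read S34F for all 6 libraries, and the titles and table columns, which separate the genotypes, were used instead.

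U2AF1 is the small subunit of the U2 auxiliary factor. It contacts the AG dinucleotide at the 3' end of the intron, while its partner U2AF2 binds the pyrimidine tract just upstream, and both help to recruit the U2 small nuclear ribonucleoprotein. The S34F mutation, found repeatedly in myelodysplastic syndromes and in acute myeloid leukaemia, lies in a zinc finger that contacts RNA, and is known to disfavour acceptors with a T just before the AG. Very short exons, often called microexons when they are of at most 27 nt, leave little room for splicing factors on either side, frequently keep the reading frame, and are best known from neurons and muscle, where the regulators Srrm4, Rbfox, Ptbp1 and the Mbnl proteins act on many of them.

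The sequences below are the short coding exons on which the comparisons turn, read from the mm9 genome on the strand of the gene, 5' to 3'. Each line has the last 20 bases of the upstream intron, the exon, and the first 6 bases of the downstream intron. The exon is in capitals. The third base before the capitals is intron position -3, the base next to the AG.
Exons with T at position -3 are Fam96a (chr9:65981239-65981288, plus strand), Cnot10 (chr9:114506913-114506948, minus), Cd302 (chr2:60093128-60093154, minus), Idh3g (chrX:71027637-71027648, minus), Dnm1l (chr16:16341515-16341561, minus), Zfand1 (chr3:10348510-10348552, minus), Mknk1 (chr4:115549186-115549229, plus), Spag9 (chr11:93974577-93974615, plus) and Kif23 (chr9:61781036-61781077, minus).
Fam96a: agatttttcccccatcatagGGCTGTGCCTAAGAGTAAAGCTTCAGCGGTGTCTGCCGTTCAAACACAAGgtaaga
Cnot10: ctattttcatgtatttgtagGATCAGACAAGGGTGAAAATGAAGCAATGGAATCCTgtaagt
Cd302: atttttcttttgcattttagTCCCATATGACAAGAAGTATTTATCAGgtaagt
Idh3g: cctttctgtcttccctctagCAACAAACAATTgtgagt
Dnm1l: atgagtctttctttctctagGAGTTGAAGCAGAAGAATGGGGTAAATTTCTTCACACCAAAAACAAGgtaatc
Zfand1: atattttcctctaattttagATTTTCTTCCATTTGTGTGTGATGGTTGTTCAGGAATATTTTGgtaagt
Mknk1: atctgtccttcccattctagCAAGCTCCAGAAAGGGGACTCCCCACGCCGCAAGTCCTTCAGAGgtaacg
Spag9: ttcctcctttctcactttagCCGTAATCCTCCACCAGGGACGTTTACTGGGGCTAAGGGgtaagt
Kif23: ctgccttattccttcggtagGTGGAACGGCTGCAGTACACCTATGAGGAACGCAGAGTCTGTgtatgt
Exons with C at position -3 are Mbnl1 (chr3:60425345-60425380, plus), Pcnt (chr10:75866369-75866389, minus), Myo9b (chr8:73882515-73882562, plus) and Layn (chr9:50884427-50884450, minus), and Senp6 (chr9:79946693-79946713, plus) has A there.
Mbnl1: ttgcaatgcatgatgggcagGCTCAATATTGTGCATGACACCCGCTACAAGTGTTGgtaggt
Pcnt: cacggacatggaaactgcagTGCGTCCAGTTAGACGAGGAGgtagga
Myo9b: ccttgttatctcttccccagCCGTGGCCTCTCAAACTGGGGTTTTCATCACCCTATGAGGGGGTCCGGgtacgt
Layn: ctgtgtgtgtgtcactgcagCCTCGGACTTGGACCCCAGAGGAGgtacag
Senp6: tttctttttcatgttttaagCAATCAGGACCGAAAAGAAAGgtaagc

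The 946 exons ranged from 10 nt upward, with 172 of 10 to 27 nt and 774 of 28 to 50 nt. The annotation of the genome build placed 572 of them wholly in coding sequence, 48 in untranslated regions, 58 in noncoding transcripts and 32 partly in coding sequence. A further 121 were part of or overlapped another annotated exon, and 115 were not annotated as exons. A length divisible by 3, which keeps the reading frame where the exon is coding, was found for 439. The exons were not independent of each other: 227 lay in genes with more than 1 short exon and 54 shared a splice site with another of them.

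**Figure D1:**
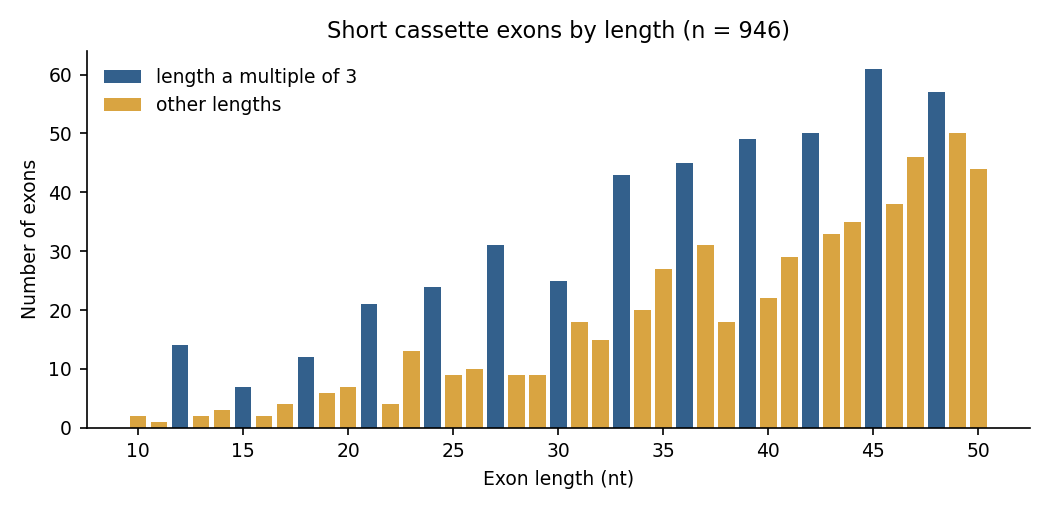
Number of short cassette exons (vertical axis) at each exon length in nt (horizontal axis), with lengths divisible by 3 in blue and other lengths in yellow. Lengths divisible by 3 stand out: 12 nt has 14 exons against 2 at 13 nt, and 45 nt has 61 against 38 at 46 nt.

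In 715 of the 946 exons, from 636 genes, both the included and the skipped form made up at least 2% of the pooled reads, and these were tested. Of the others, 163 were included at over 98% and 68 at under 2%. A length divisible by 3 was more common in the shorter exons: 67.1% of 143 exons of 10 to 27 nt, 44.9% of 572 of 28 to 50 nt and 39.6% of 7606 of 51 to 1000 nt. Inclusion in WT was lower for short exons, with a median of 54.2% at 10 to 27 nt, 76.8% at 28 to 50 nt and 88.8% at 51 to 1000 nt. Among the tested short exons, the 353 with a length divisible by 3 had a median WT inclusion of 42.2% and the 362 of other lengths 88.1%. Of these 715 exons, 433 were wholly coding. The upstream introns were shorter (median 1319 nt against 1806.5 nt before exons of 51 to 1000 nt) and the 20 intron bases from -23 to -4 held a median of 75% pyrimidines against 70%. T stood at position -3 in 30.4% of tested short exons and in 34.6% of the longer ones, C in 60.3% and 56.8%. These are descriptions of overlapping sets of genes in the same libraries and were not tested.

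The S34F libraries held 41003848 to 44589528 junction reads and the WT libraries 46491099 to 82730420, so WT inclusion rests on more reads. A tested short exon had a median of 323 junction reads per library, the lowest value was 20, and 54 exons had under 50 in at least 1 library. U2af1 was at 126 ± 9.12 CPM (reads scaled by library size and TMM factor; mean ± SD, n = 3) for S34F and 119 ± 12.6 CPM for WT, a count that does not separate the transgene from the endogenous gene and so does not check the labels. Of the markers of the sorted population, the summed level of Kit, Cd34, Mpo and Cebpa ranged from 5529 to 6946 CPM over the S34F libraries and from 4099 to 7706 CPM over the WT libraries. Markers of dendritic cells and macrophages moved with genotype. Of 8 measured genes, 7 were lower in S34F at an unadjusted edgeR p under 0.05, against 654 of all 13905 genes. After adjustment DESeq2 called 6 of the 8, all lower (75%), against 0.690% of all genes, and edgeR called 0. The summed level of the 8 was 163 to 235 CPM against 302 to 501, and Csf1r was at 138 ± 27.7 against 135 ± 9.13 CPM. Erythroid markers summed to 21.2 to 27.3 CPM against 23.1 to 55.7, with 5 of 5 lower on average, against 7074 of all 13905 genes. Megakaryocyte markers summed to 74.0 to 104.6 CPM against 115.7 to 156.2, most of it Itga2b. Lymphoid markers summed to 2.63 to 3.57 CPM against 7.20 to 9.54, carried by Klrk1 (1.61 ± 0.411 against 6.69 ± 0.820 CPM), while Cd79a was at 0.372 ± 0.204 against 0.376 ± 0.200 and Ebf1 at 0.535 ± 0.410 against 0.327 ± 0.164. No measured marker of these 4 lists was at 0 in any library. Neutrophil markers summed to 906 to 1272 CPM in S34F and 776 to 1387 in WT. Mast cell and basophil markers summed to 125 to 517 against 167 to 379 CPM. Genes absent or low by the gate or not of these progenitors (Fcgr2b, Fcgr3, Il7r and Ly6a) summed to 74 to 130 against 85 to 167 CPM. In bulk RNA fewer cells of a type and less RNA per cell cannot be told apart, and the part of these markers in the splicing values was not tested.

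No short exon passed the edgeR quasi-likelihood test of inclusion against skipping after Benjamini-Hochberg adjustment over all 8321 tested cassette exons, where the share called was also 0%. The lowest adjusted p of a short exon was 0.286. At an unadjusted p under 0.05 there were 44 short exons with lower inclusion in S34F and 28 with higher inclusion, 10.1% of those tested, against 10.3% of all cassette exons (6.78% lower and 3.47% higher). DESeq2, run as the alternative tool on the same model, called 11 short exons at an adjusted p under 0.05, 6 lower and 5 higher, against 1.32% of all cassette exons (0.949% lower and 0.373% higher). With the mean of the inclusion junctions as the count instead of their sum, DESeq2 called 10, and 8 of these were among the 11. The exons of Nktr and Anapc16 were not called there, and that of Cd302 was given no adjusted p. With 1 library left out DESeq2 called 1 to 10 short exons, the fewest without WT replicate 3. These were partly other exons: the 10 called without WT replicate 1 held 2 of the 11. Of the 6 fits, Pcnt was called in 5, Mbnl1 and Cnot10 in 2, and Fam96a, Cd302, Nktr, Zfand1 and Myo9b in 1. The exons of Gas5, Senp6 and Anapc16 described below were called in none of those fits. limma on log2 ratios called 0, with 45 lower and 25 higher at an unadjusted p under 0.05. The ranges of the 3 S34F and 3 WT libraries did not overlap in 82 exons with lower and 61 with higher inclusion, 20% of those tested, against 19.2% of all cassette exons (11.8% lower and 7.39% higher). A change of 10 percentage points or more was seen in 70 short exons, or 9.79%, against 8.62% of all. These shares of short exons were near those of all cassette exons.

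The direction of change differed with the base at position -3. The 217 tested short exons with T there were included less in S34F, with a median change of -2.39 percentage points, and 165 of them (76.0%) had the lower mean in S34F, against 55.3% of all cassette exons. The 431 with C had a median change of 0.37 points and 44.3% lower, and the 63 with A 0.79 points and 38.1% lower. Only 4 had G. Of the 44 losses at an unadjusted p under 0.05, 32 followed a T, 9 a C and 3 an A. Of the 28 gains, 1 followed a T, 21 a C and 6 an A. The C gains depended on single libraries: there were 10 gains and 9 losses without S34F replicate 2, 10 and 8 without S34F replicate 3, and 12 and 11 without WT replicate 2. Among losses of 10 points or more, 31 of 44 followed a T, and of the 26 gains of that size 0 did, 19 following a C and 7 an A. Of all tested short exons 30.4% had T, 60.3% C and 8.81% A. The split of changes of that size over all cassette exons is not given here.

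The same direction was seen in each library for T and A exons, while for C exons S34F replicate 1 lay on the WT side of 0. The median deviation of T exons from their mean over the 6 libraries was -1.82, -1.37 and -0.51 points in the 3 S34F libraries and 1.14, 0.94 and 2.13 points in the 3 WT libraries. Every S34F value lay below every WT value. For C exons the values were -0.01, 0.34 and 0.58 points in S34F against -0.03, -0.54 and -0.02 in WT, and for A exons 0.15, 0.63 and 0.72 against -0.22, -0.66 and -0.95. Without S34F replicate 1, which had the lowest T value, the count of T exons lower at an unadjusted p under 0.05 was 21 instead of 32, and their median change was -2.10 points.

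**Figure D2:**
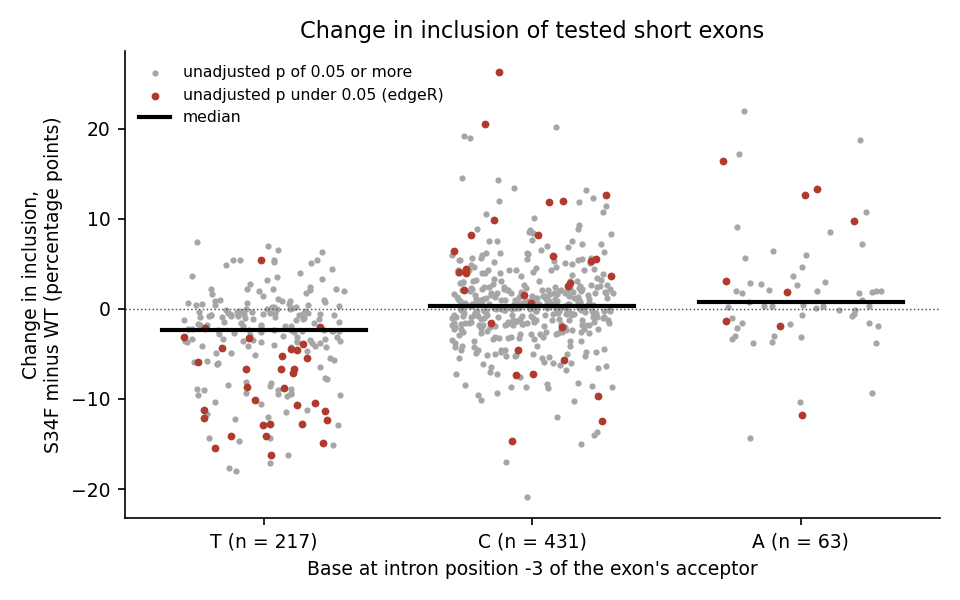
Change in inclusion of each tested short exon, mean of 3 S34F libraries minus mean of 3 WT libraries in percentage points (vertical axis), by the base at intron position -3 (horizontal axis). Each point is an exon, red at an unadjusted edgeR p under 0.05, black bars are medians, and sideways position within a base has no meaning. Red points lie below 0 for 32 of 33 exons after T and above 0 for 21 of 30 after C and 6 of 9 after A; the 4 exons with G are left out.

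**Figure D3:**
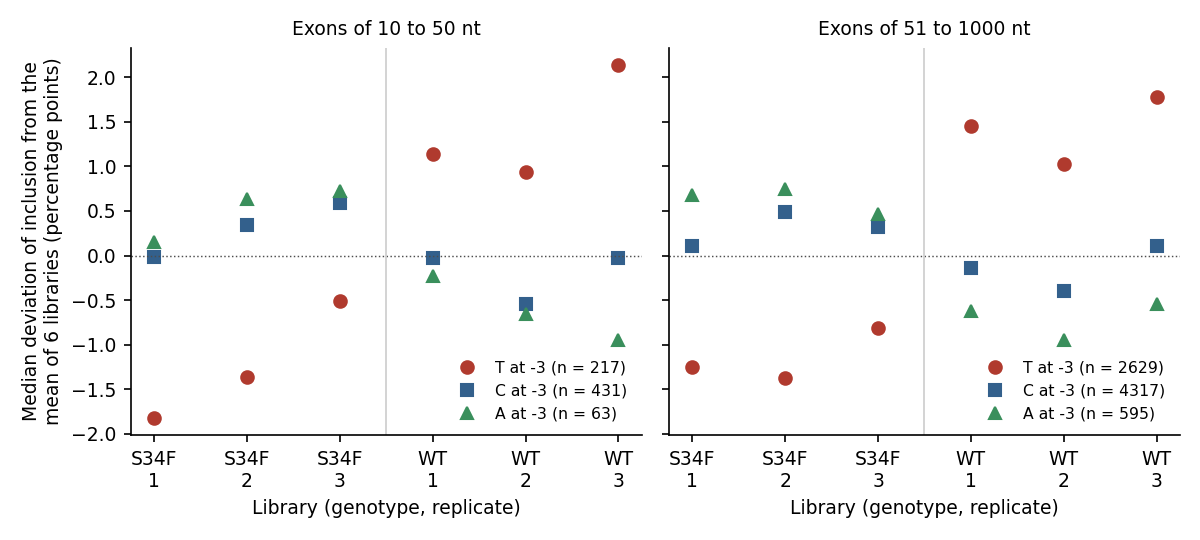
Median deviation of exon inclusion from its mean over the 6 libraries, in percentage points (vertical axis), in each library (horizontal axis), for exons of 10 to 50 nt (left) and 51 to 1000 nt (right), with T, C or A at position -3. In both length classes the T exons lie below 0 in all 3 S34F libraries and above 0 in all 3 WT libraries.

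Short T exons followed the longer ones in this. Short C and A exons did so at 28 to 50 nt, but their medians at 10 to 27 nt were below 0. Among 2629 T exons of 51 to 1000 nt the median change was -2.43 points, 78.2% had the lower mean in S34F, and 424 were lower and 21 higher at an unadjusted p under 0.05. Over all 2846 T exons of any length, 16.0% were lower and 0.773% higher at that p, and 78.0% had the lower mean. The corresponding shares of short T exons were 14.7% lower, 0.461% higher and 76.0%. For C exons of all lengths the shares were 1.96% lower, 4.44% higher and 44.6% with the lower mean, and for A exons 1.98% and 8.51%, with 224 of 658 lower on average. Genotypes did not overlap in 50 lower and 5 higher of 217 short T exons, while T exons of all lengths had 25.3% and 1.69%. For short C exons the counts were 24 and 45 of 431, while C exons of all lengths had 4.78% and 9.35%. For short A exons the counts were 7 and 11 of 63, while A exons of all lengths had 4.41% and 18.2%. The T exons of 10 to 27 nt had a median change of -3.02 points (n = 40, 32 lower) and those of 28 to 50 nt -2.38 points (n = 177, 133 lower), a difference that was not tested. At 10 to 27 nt the C exons had a median of -0.46 points (n = 85, 46 lower) and the A exons -0.56 (n = 18, 10 lower). Those medians were 0.50 and 1.89 points at 28 to 50 nt, and 0.34 and 1.26 at 51 to 1000 nt. These differences were not tested either. The median change of all tested exons of 10 to 27 nt was -1.04 points and of 28 to 50 nt -0.13 points. On the edge of the length limit, exons of 46 to 50 nt had a median change of 0.02 points (n = 159) and exons of 51 to 55 nt -0.70 points (n = 240), with T exons at -2.40 and -1.72 points.

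The median change of T exons was also taken in subsets. It was -2.41 points in exons with a length divisible by 3 (n = 100) and -2.38 in those of other lengths (n = 117). In wholly coding exons it was -2.61 points (n = 143, 25 lower and 1 higher at an unadjusted p under 0.05). In exons whose inclusion junctions had read totals within 2-fold of each other it was -2.37 points (n = 162, 27 lower and 1 higher). By WT inclusion, a split that uses part of the change itself and so leans to losses at high and to gains at low levels, it was -4.13 points between 10 and 90% (n = 92) and -1.95 above 90% (n = 91), against -0.27 and -0.70 over all tested short exons of those levels. Under 10% the T exons had a median of -0.67 points, with 20 of 34 lower, 2 lower and 3 higher without overlap, and per-library medians that overlapped between genotypes, against 0.33 points over all 149. When the base was taken from the acceptor of the skipping junction instead, the median changes of all tested short exons were -0.11 points for T (n = 229), -0.47 for C (n = 424) and -0.19 for A (n = 58).

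The named T exons with the lowest p-values were nearly all included less in S34F. The 50 nt exon of Fam96a, which takes part in the assembly of iron-sulfur proteins, was included at 89.8, 89.0 and 92.5% in S34F against 96.1, 95.5 and 95.4% in WT, 90.4 ± 1.86 against 95.6 ± 0.391% (SD, n = 3). The genotypes did not overlap, and with at least 2827 junction reads in each library this was the lowest edgeR p of a short exon (log2 odds ratio -1.20, SE 0.22, edgeR unadjusted p = 0.00077, adjusted p = 0.286; DESeq2 adjusted p = 0.0195). The 12 nt exon of Idh3g, a regulatory subunit of the NAD-dependent isocitrate dehydrogenase of the citric acid cycle, was included at 60.3, 56.9 and 67.6% in S34F against 78.5, 78.1 and 72.8% in WT. All S34F values were below all WT values, a change of -14.9 points, with an edgeR unadjusted p of 0.00343 (adjusted p = 0.290) and a DESeq2 adjusted p of 0.0801. The 47 nt exon of Dnm1l, the GTPase that drives mitochondrial fission, was at 93.7, 89.0 and 91.7% against 96.4, 99.4 and 98.8%, again without overlap, a change of -6.72 points (DESeq2 adjusted p = 0.0567).

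Among the other T exons, the 36 nt exon of Cnot10, a subunit of the CCR4-NOT deadenylase complex, was included at 77.0, 81.0 and 86.0% in S34F against 95.9, 94.5 and 91.8% in WT. This difference of -12.7 points had a log2 odds ratio of -1.86 with an SE of 0.41 (edgeR adjusted p = 0.290; DESeq2 adjusted p = 0.0218). The 27 nt exon of Cd302, a C-type lectin receptor of myeloid cells, was at 78.2, 83.8 and 85.7% against 96.3, 100 and 100%. Its skipping junction had 11, 6 and 6 reads in S34F and 1, 0 and 0 in WT, a change of -16.2 points on as few as 53 reads in a library (DESeq2 adjusted p = 0.0277). The Cd302 gene itself had 3.23 ± 0.488 CPM in the S34F libraries and 2.67 ± 0.584 CPM in the WT libraries. The 41 nt exon of Gas5, a noncoding host of small nucleolar RNAs, was at 37.1, 38 and 42.4% against 54.4, 51.1 and 50.3%, a change of -12.8 points without overlap (DESeq2 adjusted p = 0.0458). The 27 nt exon of Aebp2, an accessory subunit of Polycomb repressive complex PRC2, changed by -4.37 points, but its inclusion junctions differed 19.9-fold in reads, so the level is not that of a single exon form: the change was -2.34 points from the upstream junction alone and -45.2 points from the downstream junction alone.

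Of the 5 largest losses without overlap, Cd302 and 3 others followed a T. In Kif23, a kinesin of cytokinesis, the 42 nt exon was included at 36.8, 29.3 and 39.96% in S34F against 49.8, 43.6 and 66.6% in WT, a change of -18.0 points with wide spread in WT (edgeR unadjusted p = 0.0545). In Mknk1, a kinase of the cap-binding factor eIF4E, the 44 nt exon was at 63.4, 74.4 and 67.9% against 84.9, 84.4 and 82.8%, a change of -15.5 points (unadjusted p = 0.0273). In Spag9, a scaffold of JNK signalling, the 39 nt exon was at 21.9, 20.4 and 30.2% against 36.8, 34.6 and 46.5%, a change of -15.1 points (unadjusted p = 0.0512). The remaining loss, the 24 nt exon of the hyaluronan receptor gene Layn, followed a C and was at 26.3, 25.8 and 31.6% against 42.9, 39.5 and 63.8%, on as few as 39 reads in a library. None of these 4 had a DESeq2 adjusted p under 0.05, and that of Layn was not given by the tool.

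Zfand1, a zinc finger gene linked to the clearance of stress granules, was the single T exon with higher inclusion at an unadjusted p under 0.05. Its 43 nt exon had 0 skipping reads in each S34F library, 100% inclusion, and 13, 4 and 8 in the WT libraries, or 94.6 ± 3.55% (DESeq2 adjusted p = 0.0229). The 0 reads of S34F allow skipping of up to 0.693%, counting 3 reads over the group. The exon of Pcnt was the mirror case, with 14, 7 and 9 skipping reads in S34F and 0 in each WT library, which allows up to 0.475% there over the group. These limits cover counting error only.

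Pcnt and Mbnl1 had lower inclusion with a C at position -3. The 21 nt exon of Pcnt, the centrosome scaffold pericentrin, was at 91.8, 95.8 and 95.4% in S34F and 100% in each WT library, a change of -5.68 points (edgeR unadjusted p = 0.00088, adjusted p = 0.286; DESeq2 adjusted p = 0.00511). DESeq2 still called it in 5 of the 6 fits that left out a library. The 36 nt exon of Mbnl1, a splicing regulator that itself acts on alternative exons, was at 81.2, 83.5 and 87.5% against 93.9, 92.3 and 95.2%, without overlap (log2 odds ratio -1.52, SE 0.28; edgeR adjusted p = 0.286; DESeq2 adjusted p = 0.0108).

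The paralogs of Mbnl1 held matching exons of 36 nt, shown here because their sequences align without a gap, with Mbnl1 and Mbnl2 (chr14:120802558-120802593, plus) alike at 31 of 36 bases and Mbnl1 and Mbnl3 (chrX:48479303-48479338, minus) at 26. All 3 had C at position -3 and the same 6 intron bases after the exon.
Mbnl2: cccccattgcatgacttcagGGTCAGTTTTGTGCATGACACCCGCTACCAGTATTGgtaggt
Mbnl3: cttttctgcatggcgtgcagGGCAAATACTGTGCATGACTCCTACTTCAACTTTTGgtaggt
The paralogous exons were chosen after the value of Mbnl1 was seen. In Mbnl3 the exon was rarely used, at 0.136, 1.46 and 1.25% in S34F and 2.25, 3.65 and 2.93% in WT, without overlap (edgeR unadjusted p = 0.0424, adjusted p = 0.472). In Mbnl2 it was at 0, 13.8 and 11.8% against 27.7, 9.64 and 0.690%, on as few as 41 reads in a library, and the genotypes overlapped. A 49 nt exon of Mbnl1 went the other way, at 92.8, 98.8 and 99.0% in S34F and 91.5, 91.3 and 88.0% in WT (unadjusted p = 0.0532), with inclusion junctions 2.52-fold apart.

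The other gains called by DESeq2 followed C or A. The 21 nt exon of Senp6, a protease that removes SUMO chains, was included at 67.3, 69.9 and 68.6% in S34F against 55.4, 53.6 and 56.7% in WT. The SDs were 1.26 and 1.55 points and the change was 13.3 points (log2 odds ratio 0.82, SE 0.21; edgeR unadjusted p = 0.0048, adjusted p = 0.297; DESeq2 adjusted p = 0.0195), on at least 1065 reads in each library. An unannotated 50 nt exon of Anapc16, a subunit of the anaphase-promoting complex, with A at position -3, was at 44.0, 41.03 and 41.3% against 27.5, 23.7 and 25.9%, a change of 16.4 points without overlap (DESeq2 adjusted p = 0.0269). It lies at chr10:59465166-59465215. An unannotated 31 nt exon of Nktr, a cyclophilin-related gene, was at 7.45, 3.77 and 9.25% against 0.775, 0.513 and 0% (DESeq2 adjusted p = 0.0231). The 48 nt exon of Myo9b, a myosin with a RhoGAP domain, was at 2.31, 5.83 and 4.90% against 0.993, 0.310 and 0.785% (DESeq2 adjusted p = 0.0329). Both were minor forms with few inclusion reads, 19, 8 and 21 against 2, 1 and 0 for Nktr and 15, 28 and 27 against 6, 2 and 9 for Myo9b. On the mean instead of the sum of the inclusion reads, the DESeq2 adjusted p was 0.057 for Nktr and 0.0707 for Anapc16. Those of Senp6 and Myo9b stayed under 0.05.

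**Figure D4:**
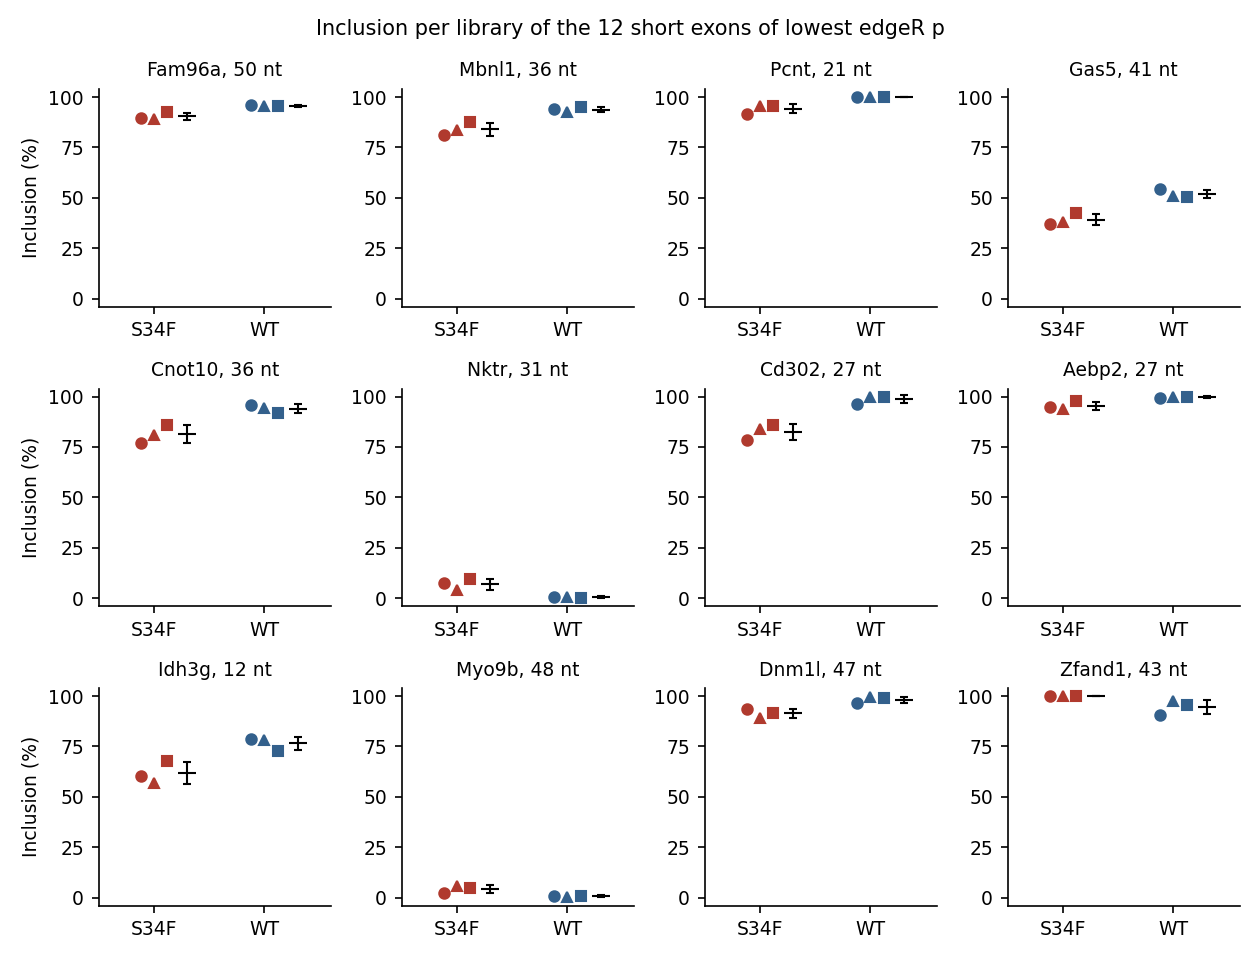
Inclusion in percent (vertical axis, 0 to 100) in the 3 S34F (red) and 3 WT (blue) libraries for the 12 short exons of lowest edgeR p, with circle, triangle and square for replicates 1, 2 and 3 and the mean ± SD in black. In all 12 panels the genotypes do not overlap; 9 exons are lower in S34F and 3, in Nktr, Myo9b and Zfand1, are higher.

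The largest gains without overlap rested on fewer reads. The 48 nt exon of the protein phosphatase Ppm1b was at 56.0, 36.7 and 43.2% in S34F and 29.5, 20.9 and 6.53% in WT, a change of 26.3 points (edgeR unadjusted p = 0.0376; lowest library 55 reads). The 42 nt exon of the prenylcysteine oxidase-like gene Pcyox1l, which overlaps another exon, was at 52.2, 49.6 and 55.4% against 27.8, 37.7 and 30.2%, a change of 20.5 points (unadjusted p = 0.0211). The gains in Mier1 (35 nt, 18.9 points) and in the untranslated region of Phc3 (48 nt, 18.8 points), genes of chromatin-associated proteins, had unadjusted p-values of 0.0837 and 0.0846 on as few as 32 and 33 reads. The level in Mier1 rests mostly on the downstream inclusion junction, with 156 reads against 30 at the upstream one. With 3 libraries against 3, the exact two-sided permutation test of any of these exons cannot go below 0.1, which each non-overlapping exon reached.

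The authors' deposited table tests each junction within its gene, and it was read at the skipping junctions of the 715 exons. Of these junctions 10 had, in the authors' deposited table, an adjusted p under 0.05, 8 of them with a positive log2 fold change, and 6 belonged to exons that DESeq2 called here. For 69 of the 72 exons at an unadjusted edgeR p under 0.05, the authors' deposited table gave the skipping junction a fold change opposite in sign to the inclusion change. The same counts over all cassette exons are not given here, so these counts show nothing particular to short exons. The authors' deposited table gave the skipping junction of Senp6 a log2 fold change of -0.61 (adjusted p = 2.53e-05), that of Mbnl1 1.49 (3.42e-05), that of Fam96a 1.12 (0.000608) and that of Idh3g 0.74 (0.00264). These come from the same reads and are no independent measurement.

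Levels of the exons of 10 and 11 nt rested mostly on a junction that other forms share. The 10 nt exon of Eef1b2, a translation elongation factor subunit, was included at 99.9, 99.6 and 99.7% in S34F against 99.8, 99.7 and 99.6% in WT and was not tested. The 11 nt exon of Caprin1, an RNA-binding protein of stress granules, had 99.4 ± 0.126% against 99.6 ± 0.305%, likewise not tested. The 10 nt exon of Vps16, a gene of vesicle tethering complexes, had 97.8 ± 0.756% against 93.8 ± 3.38%. At the less used inclusion junction, however, Eef1b2 had 1064 reads over the 6 libraries against 105 skipping reads, Caprin1 107 against 53 and Vps16 58 against 35. The other inclusion junction had 72883, 22533 and 1502 reads, so the percentages are not those of these exons alone. Of 14 exons of 12 nt, 13 were tested, with WT inclusion from 9.17 to 97.9%, and 8 were lower and 5 higher in S34F. Among them the change in Idh3g was the largest loss. The 12 nt exon of Dnm2, the GTPase of endocytosis, was at 93.9, 95.8 and 97.2% against 93.1, 96.1 and 94.8%, with overlapping genotypes (edgeR adjusted p = 0.847).

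Lists of genes known for microexons, of microexon and splicing regulators, and of 3' splice site factors held 15, 11 and 3 of the short exons. Of these 29, 21 were tested, none of them in the 3' splice site factors. An unadjusted p under 0.05 was found for 3 of the 21 (14.3%), against 10.3% of all cassette exons. Besides the 36 nt exon of Mbnl1 these were Mbnl3, given above, and the 15 nt exon of Abi1, a regulator of actin assembly, both named after their values were seen. The Abi1 exon was at 31.9, 29.2 and 34.2% in S34F and 48.9, 38.7 and 42.7% in WT, without overlap and with A at position -3 (unadjusted p = 0.0338, adjusted p = 0.443). Of the 6 exons of these lists with most reads, those of Ptbp1 (31 nt), Hnrnpk (44 nt) and Rbm39 (33 and 50 nt) were included at 98.4 to 99.7% on average in each genotype. A 33 nt form of the Hnrnpk exon shares its downstream junction, with 33978 reads, and had 26 reads at its own upstream junction against 226 skipping reads, so its nominal 98.9 and 98.5% rest on the shared junction. The 36 nt exon of the clathrin light chain gene Clta, known as a neuronal exon, was included at 1.13 ± 0.0700% against 0.905 ± 0.248%.

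At the gene level, 19 of 26 listed microexon and splicing regulators were measured, and 15 of these had a higher mean in S34F (median log2 fold change 0.18, against -0.01 over all 13905 genes). At an unadjusted edgeR p under 0.05, 3 were higher and 0 lower (15.8%, against 9.10% of all genes), and 0 passed after adjustment by edgeR or DESeq2. Of 13 factors of the 3' splice site, 2 were higher and 0 lower at that p (15.4%). Genes known for neural or muscle microexons had 0 higher and 1 lower of 44 (2.27%).

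The genes that hold short exons showed gene-level changes about as often as other genes. Of 820 such genes tested, edgeR called 0 after adjustment, as in all genes (0%), and 36 were lower and 43 higher at an unadjusted p under 0.05, 9.63% against 9.10% of all 13905 genes. DESeq2 called 6, or 0.732%, against 0.690%. Those with a tested short exon were Susd1 and Trim21, at 124 ± 12.9 against 180 ± 9.45 CPM and 25.1 ± 2.79 against 36.6 ± 2.36 CPM, and Hnrnpa2b1 and Rbm34, at 649 ± 91.0 against 382 ± 97.6 CPM and 41.8 ± 2.33 against 26.8 ± 5.31 CPM. None of their short exons was called by DESeq2. Without WT replicate 1, edgeR called 105 of these genes (12.8%), against 8.42% of all genes in that fit.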

How the data were processed

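Members, gene lists and tests were chosen with earlier results of these data known. The authors deposited raw read counts per gene and per splice junction, with no normalization, from 100 bp paired, ribosome-depleted, strand-specific libraries. Per the file headers, the junction table also holds the authors' test of each junction, with a log2 fold change and p-values. Another 12 per-sample columns, repeated gene counts and FPKM, were not used. The submitters' processing notes name TopHat2 2.0.8, HTSeq 0.5.4p1, Bowtie2 2.1.0, DESeq2 1.6.1, Cufflinks 2.1.1 and the build mm9, without saying what each did. No source used here gives the annotation or the strand setting of the counting.

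Junction positions were read as exon bases: after a shift of 1 base inward 99.985% of GT-AG introns carried these bases in the genome, against 0% as printed. Inclusion used the flanking pair with most reads, and exons holding a junction inside were left out. A read of 100 bp can cross both junctions of a short exon and be counted at each. Aligners can miss very short exons, and this was not measured. edgeR 4.0.16 in R 4.3.3 was fitted to the summed inclusion count and the skipping count, with terms for library and form and a test of genotype by form, over 8321 cassette exons of 10 to 1000 nt. The SE of an edgeR log2 odds ratio was back-calculated as its absolute value over the square root of the F statistic. DESeq2 1.42.0 and limma 3.58.1 (log2 ratios, 0.5 added) were alternatives. Gene counts were fitted with edgeR over 13905 genes, and CPM used TMM factors. P-values were adjusted by Benjamini-Hochberg and the threshold was 0.05. All tests were two-sided.

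The text names the 12 exons of lowest edgeR p, the 5 largest gains and 5 largest losses without overlap, the 5 shortest, those called by either tool, and 6 of the listed genes. On simulated counts for the 8321 exons, edgeR recovered 8% of exons changed 1.5-fold, 50% at 2-fold, 98% at 4-fold and 100% at 8-fold. DESeq2 recovered 0%, 16%, 94% and 92%. False calls among unchanged exons numbered 8 for edgeR and 0 for DESeq2. On simulated counts for the 13905 genes, edgeR recovered 20%, 72%, 100% and 100%, with 2 false calls. The spread was fixed and the same for every exon or gene, and not taken from these libraries. Changes were placed only in exons above a minimum of reads of both forms. The shares recovered are therefore not the power in the real libraries. Figures were drawn with matplotlib 3.10.9. The alternatives were the tool, the scaling, the read and form minimums, the use of either or both inclusion junctions, the length limit, a term for the replicate number, and each library left out. Those on balanced junctions and on DESeq2 beyond its default were added after the data were seen.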

Additional observations from a re-analysis of the deposited data

How the results depend on the processing

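The edgeR count of short exons called stayed at 0 under every alternative run except DESeq2, which called 11. Replicate numbers did not pair the libraries over exons, where same-numbered deviations correlated at 0.042, -0.007 and 0.022 and 2 of 6 libraries correlated best with their own number. Over genes the correlations were 0.253, 0.317 and 0.039, not all over 0.1, with 4 of 6 libraries best with their own number, and the replicate block took host genes at an unadjusted p under 0.05 from 79 to 114, with 0 called. With the replicate block edgeR gave 34 losses and 23 gains at an unadjusted p under 0.05 and called 0, and DESeq2 called 1 (Pcnt). With an upper length of 40 nt there were 26 losses and 15 gains, a median change of -0.63 points and 55.9% lower, with 17 T losses and a T median of -3.02. With 60 nt there were 76 losses and 55.8% lower, with 58 T losses; the counts follow the number of exons. The T median was -1.27 points with no minimum share of the minor form and -3.64 at 5%.

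Leaving out each library gave 28 to 48 losses, 16 to 32 gains, median changes of -0.65 to -0.18, shares lower of 52.2 to 56.6%, 21 to 33 T losses and 1 to 10 DESeq2 calls. DESeq2 called 4 without S34F replicate 1, 2 without S34F replicate 2, 5 without WT replicate 2 and 1 without WT replicate 3. Without S34F replicate 3 the median was -0.65. Lowest gain counts were 16 without S34F replicate 2 and 17 without S34F replicate 3, and the fewest losses, 28, came without S34F replicate 1. Host genes called numbered 6 by DESeq2 and 0 to 105 on leaving out libraries. The causes were not tested. The T median was negative in every setting. Of 418 values of 24 named exons under alternatives, 407 kept their direction and side of the threshold, 11 passed it under DESeq2, and 0 reversed. Nearly all of these exons were named for low p-values or non-overlapping genotypes in these data. Leaving out a library cannot reverse the mean difference of such non-overlapping exons, so the lack of reversals was largely fixed in advance.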

Other observations

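Gas5, whose introns encode small nucleolar RNAs, held 10 of the short exons, and they did not move together. The 41 nt exon was lower in S34F, as given above. A 37 nt exon (chr1:162966339-162966375), with C at position -3, was included at 90.8, 92.9 and 95.3% in S34F and 87.5, 88.7 and 86.4% in WT (edgeR unadjusted p = 0.00715, adjusted p = 0.334), without overlap. A 28 nt exon was at 89.9 ± 1.42% against 90.9 ± 0.665% and overlapped. Gas5 reads at the 41 nt exon varied more between libraries of 1 genotype than between genotypes, with 4925, 3668 and 460 inclusion reads in S34F and 782, 4320 and 1812 in WT, and the inclusion level stayed within 37.1 to 42.4% and 50.3 to 54.4%.

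Among further T exons with losses over 10 points at an unadjusted p under 0.05, 3 are given here, chosen after their values were seen. Luc7l2, a U1-associated splicing factor, had its 30 nt exon at 44.7, 47.4 and 43.8% in S34F and 55.2, 53.4 and 61.1% in WT, on at least 1494 reads in each library. Fip1l1, a polyadenylation factor subunit, had its 27 nt exon at 57.3, 58.5 and 67.0% against 75.8, 69.2 and 74.1%. Prc1, a microtubule bundler of the central spindle, had its 42 nt exon at 32.8, 27.8 and 30.5% against 41.5, 42.5 and 45.8%. In each the genotypes did not overlap, and the edgeR adjusted p was 0.376, 0.460 and 0.473. In the other direction, the 45 nt exon of Gnas, the stimulatory G protein alpha subunit, with A at position -3, was at 69.6, 73.1 and 74.8% against 65.3, 61.6 and 61.4% (adjusted p = 0.362).

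Annotation went with the level of use. The 70 tested exons absent from the annotation had a median WT inclusion of 5.61% and a median change of 0.48 points, against 84.9% and -0.45 points for 433 coding exons. The limits on pooled inclusion left the untested exons little room to change. Those included under 2% changed by -1.85 to 2.48 points and those over 98% by -3.55 to 3.11 points. Genotypes did not overlap in 6 lower and 7 higher of the 68 under 2%, and in 20 lower and 11 higher of the 163 over 98%. Over all tested cassette exons the shares were 11.8% lower and 7.39% higher. The 31 candidates under the read minimum had a median change of 1.76 points and the 10 members with 20 to 24 reads in their lowest library one of -7.31 points.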
